A study of Mus musculus with 10 samples.

Results

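Transcripts of the Kruppel-like factor (KLF) genes were measured in skeletal muscle stem cells (MuSCs) that carried or lacked a deletion of Trpm7. The members were given as a list of 10 gene symbols, Klf2, Klf3, Klf4, Klf5, Klf6, Klf7, Klf9, Klf10, Klf13 and Klf15, and all 10 were found among the 24608 symbols of the count table. There were 5 libraries from control mice, which were Trpm7 +/+, and 5 from Trpm7 cKO mice, which were Trpm7 flox/flox. All mice were adults of a C57BL6 background, all carried the tamoxifen-dependent Cre allele Pax7 CreERT2/+ and the reporter Rosa26 YFP, and all received tamoxifen, so that Cre acts in cells that express Pax7 and YFP marks them for sorting. Muscle was injured with cardiotoxin (CTX), a toxin that destroys myofibers and leaves MuSCs to rebuild them, and each library was made from 3000 sorted cells 3 days post-CTX injury. Trpm7 encodes an ion channel that admits Mg2+, and the comparison asks how transcripts of MuSCs that respond to injury differ when that channel is deleted. The label of Trpm7 cKO replicates 4 and 5 shares a number whose meaning is not stated, so that separate animals are not established for this pair, and p-values measure the spread between these libraries.

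KLFs are transcription factors that bind GC-rich and CACCC sequences through zinc fingers at the carboxyl end of the protein, a domain they share with the SP factors. Their amino-terminal parts differ and recruit different partners. Klf3 recruits the corepressor CtBP, Klf9, Klf10 and Klf13 recruit the Sin3 repressor complex, and Klf2, Klf4, Klf5, Klf6 and Klf7 can recruit acetyltransferases such as p300 and CBP. Several members respond within a short time to serum, shear stress, TGF-beta or steroid hormones. In skeletal muscle, Klf15 is known as a target of the glucocorticoid receptor. Klf2 and Klf4 have been described elsewhere as targets of ERK5 and MEF2.

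A count is 1 molecule read at its 3′ end, and control libraries totalled 914361 to 1097709 counts, against 205986 to 581121 for Trpm7 cKO. Depth therefore moved with genotype, and the share of mitochondrial counts did as well, at 12.0% to 16.5% in control and 8.82% to 10.6% in Trpm7 cKO libraries. The KLF members together took 2046 to 2623 counts per control library and 819 to 2219 counts per Trpm7 cKO library. Trpm7 itself had 67, 66, 84, 83 and 66 counts in control and 38, 55, 23, 28 and 10 counts in Trpm7 cKO libraries, with a log2 fold change of -0.09 (SE 0.20, adjusted p = 0.723, from the quasi-likelihood test of edgeR). The position of the deleted part relative to the 3′-end reads is not given in the sources used here, so whether this value checks the deletion is not known, and genotypes were taken from the labels.

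Cells other than MuSCs were searched for by their markers, since several KLFs are abundant in leukocytes and endothelium. Pax7, which defines MuSCs, was present in every library, at 166 to 259 CPM in control and 265 to 557 CPM in Trpm7 cKO (CPM, counts scaled by library size and TMM factor), and of the other defining genes Itga7 was lower in Trpm7 cKO (log2 fold change -0.59) and Myf5 higher (0.81), while Cdh15 and Vcam1 did not pass the test. Of the 21 tested genes of this MuSC identity list, 12 were higher and 4 lower, with a median log2 fold change of 0.72 and a range of -1.49 to 3.49, and this is the list used for the alternative scaling. Of 34 leukocyte markers, 25 had enough counts to be tested and all 25 were higher in Trpm7 cKO, with summed levels of 466 to 786 CPM in control and 1704 to 7385 CPM in Trpm7 cKO libraries. The defining leukocyte genes Ptprc, Cd52, Cd53, Lyz2 and Cd68 were above 0 in every library. Endothelial markers (3 of 14 tested) summed to 8.58 to 88.0 CPM in control and 147 to 844 CPM in Trpm7 cKO libraries, and all 3 were higher, although Pecam1, Cdh5, Kdr and Flt1 were at 0 in at least 1 control library each. Erythroid markers summed to 1.99 to 178 CPM in control and 146 to 3274 CPM in Trpm7 cKO, fibro-adipogenic markers to 1413 to 2649 CPM and 2649 to 5231 CPM, mural markers to 601 to 947 CPM and 1217 to 1759 CPM, and myofiber markers to 211 to 435 CPM and 97.9 to 182 CPM. These lists moved with genotype beside every KLF result given here, and their part in those results was not tested beyond a fit with a leukocyte score, the mean log2 CPM of the 25 tested leukocyte markers, as a covariate. In bulk libraries, fewer cells of a type and less RNA per cell cannot be told apart.

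Of the 10 KLF members, 9 had enough counts to be tested. Klf2, Klf4, Klf7, Klf9, Klf10 and Klf13 were higher in Trpm7 cKO than in control MuSCs after normalization, Klf3, Klf5 and Klf6 did not pass the test, and none was lower, whereas only 4 remained higher when libraries were scaled on MuSC identity genes, a fixed list that includes Pax7, and 1, with 3 lower, when counts per 3000 sorted cells were compared without scaling. With a leukocyte score as a covariate, 3 remained higher, Klf4, Klf7 and Klf10. The scores did not overlap between genotypes, so that fit separates score and genotype only by the spread within genotypes. After TMM normalization, the background was 24.6% of the 7753 genes tested higher and 24.1% lower, 48.7% in all. Calls were made by edgeR's quasi-likelihood test at a Benjamini-Hochberg adjusted p below 0.05. The background differed in the other settings. Of the same 7753 genes, 1188 were higher and 2514 lower when scaled on MuSC identity genes. It was 380 and 5162 without scaling, and 345 and 117 with the leukocyte score. Klf9 and Klf10 also exceeded a log2 fold change of 1.5, the threshold of the study, which 8.49% of all genes passed upward and 3.53% downward. The range of normalized counts on the per-library CPM scale in Trpm7 cKO lay wholly above that in control for Klf2, Klf4, Klf7, Klf9 and Klf10, 5 members, against 16.6% of all genes tested. The median log2 fold change of the 9 members was 0.77, from -0.12 to 2.19 (median 0.50 when scaled on MuSC identity genes and -0.41 without scaling), and that of all genes tested was -0.01, with quartiles of -0.51 and 0.56. No test of the members as a group was made.

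**Figure D1:**
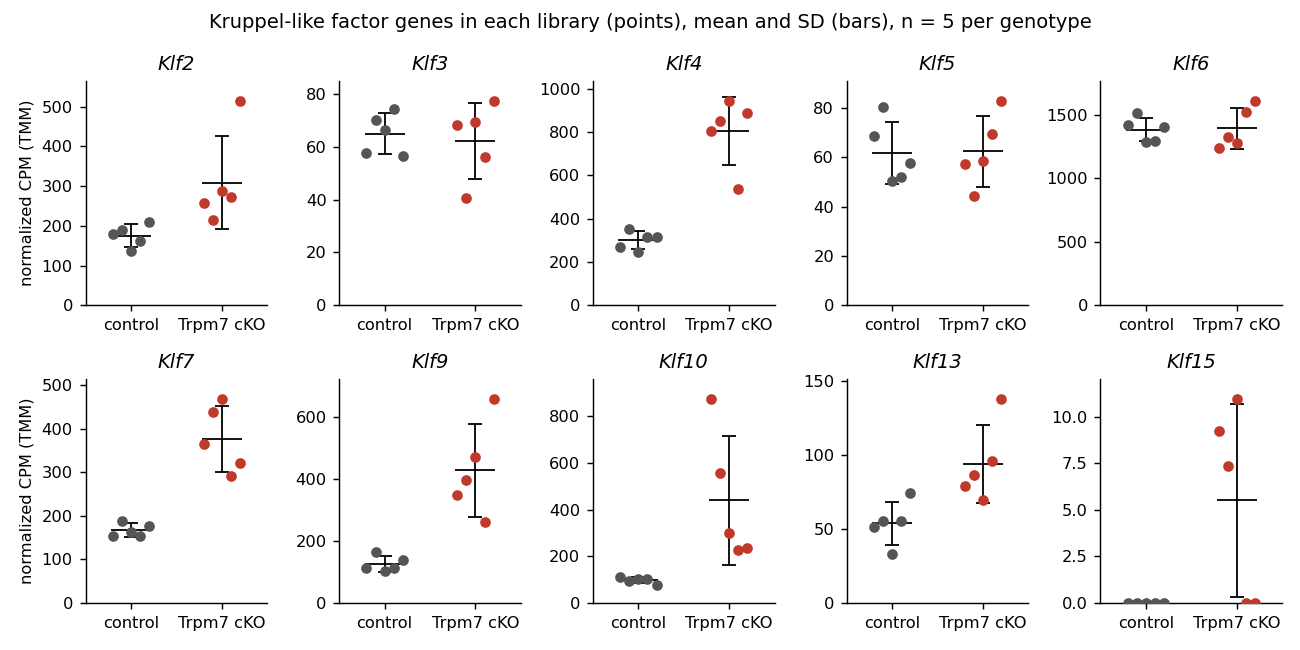
Normalized CPM (TMM, vertical axes from 0) of the 10 KLF genes, 1 panel per gene, with each of 5 control libraries in grey and 5 Trpm7 cKO libraries in red and bars for the mean and SD. The Trpm7 cKO points lie above all control points for Klf2, Klf4, Klf7, Klf9 and Klf10, and the groups overlap for the other 5 genes.

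The choice of scale decides part of this count and needs to be read with it. Of the 3774 genes called after TMM normalization, 50.6% were higher in Trpm7 cKO, and this share of the calls was 32.1% after scaling on the MuSC identity genes and 6.86% without scaling, where the median of all genes lay at -1.15. Relative to that median, the unscaled log2 difference was 0.66 for Klf2, 1.35 for Klf4, 1.15 for Klf7, 1.58 for Klf9, 2.29 for Klf10 and 0.74 for Klf13, and it was -0.15 for Klf3, -0.05 for Klf5 and -0.01 for Klf6. This is the order of the TMM values except that Klf2 and Klf13 changed places, while the sign of the unscaled difference itself turned negative for Klf2, Klf6 and Klf13. Per library of 3000 sorted cells, the mean raw count of Klf6 was 1319 ± 121 in control and 589.6 ± 264 in Trpm7 cKO (SD, n = 5 each). That of Klf10 was 94.0 ± 17.0 and 208 ± 178 (SD, n = 5 each). Raw counts also carry the capture and sequencing depth of each library, which is not fixed per cell, so they are not amounts per cell.

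Klf6 was the most abundant member in both genotypes. It is induced soon after injury in many tissues and acts mostly as an activator. The gene lies at chr13:5861482-5870394 on the + strand of GRCm38 and had 291 to 1465 counts per library. Its level was 1417, 1513, 1289, 1296 and 1401 CPM in control replicates 1 to 5. In Trpm7 cKO replicates 1 to 5 it was 1236, 1323, 1279, 1523 and 1606 CPM. The groups overlapped over most of their range, with the lowest and the highest library both being Trpm7 cKO. The log2 fold change was 0.01 (SE 0.13, 95% interval -0.27 to 0.28, adjusted p = 0.965), so that this depth leaves room for a difference of up to that interval. Without scaling, Klf6 was lower in Trpm7 cKO (log2 difference -1.16, adjusted p = 0.00402), close to the shift of the median gene. That comparison carries the lower depth of the Trpm7 cKO libraries and is not one of amounts per cell.

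Klf4, known as a reprogramming factor and as an inhibitor of proliferation in epithelia and vessel walls, was the next most abundant member. It lies at chr4:55527143-55532466 on the - strand and had 161 to 464 counts per library. Control replicates 1 to 5 had 269, 352, 248, 317 and 314 CPM. Trpm7 cKO replicates 1 to 5 had 806, 854, 943, 537 and 888 CPM. Every Trpm7 cKO library stood above every control library, and replicate 4 was the lowest of its genotype. Klf4 rose by a log2 fold change of 1.42 (SE 0.16, 95% interval 1.08 to 1.75, adjusted p = 7.51e-07), from 300.1 ± 41.4 to 805 ± 158 CPM (SD, n = 5 each). Without scaling the log2 difference was 0.20 and not called (adjusted p = 0.627). The exact permutation test over the libraries, two-sided, gave p = 0.00794 for Klf4, the smallest value that 5 against 5 libraries allow, and the same value for Klf2, Klf7, Klf9 and Klf10.

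Klf2 maintains quiescence of T cells and of endothelium. The gene lies at chr8:72319033-72321656 on the + strand, and it had 79 to 183 counts per library. Its level was 179, 189, 136, 162 and 211 CPM in control libraries and 257, 213, 289, 272 and 513 CPM in Trpm7 cKO libraries. Control replicate 5 at 211 CPM and Trpm7 cKO replicate 2 at 213 CPM all but met, and Trpm7 cKO replicate 5, the shallowest library, stood far above the rest. The log2 fold change was 0.77 (SE 0.20, 95% interval 0.36 to 1.18, adjusted p = 0.00281). It was 0.55 without Trpm7 cKO replicate 5 (adjusted p = 0.00594), 0.50 when scaled on MuSC identity genes (adjusted p = 0.0867) and -0.45 with the leukocyte score as a covariate (adjusted p = 0.651).

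Klf7, best known from outgrowth of axons, lies at chr1:64029447-64122282 on the - strand. Control libraries had 154, 189, 163, 155 and 176 CPM, and Trpm7 cKO libraries had 364, 438, 468, 292 and 320 CPM. All Trpm7 cKO libraries stood well above all control libraries. Klf7 rose by a log2 fold change of 1.17 (SE 0.15, 95% interval 0.86 to 1.48, adjusted p = 3.21e-06), and without scaling the difference was 0.00 (adjusted p = 0.997). The value was 1.66 with the leukocyte score as a covariate (adjusted p = 0.0126). Since the scores did not overlap between genotypes, 1.66 is not evidence of a larger rise. The noncoding gene Gm26649 on the opposite strand covers the 3′ end of Klf7, where 76.0% of the 31-base stretches of the last 500 transcript bases lie within it. The strand setting of the counting is not given in the sources used here, so the assignment of these 58 to 238 counts per library to Klf7 is uncertain.

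Klf5, which acts with growth signals in gut and smooth muscle and also in muscle differentiation, lies at chr14:99298691-99315036 on the + strand. It had 68.6, 80.5, 50.4, 52.2 and 57.9 CPM in control and 57.3, 44.2, 58.5, 69.6 and 82.8 CPM in Trpm7 cKO libraries. The groups overlapped throughout, on 15 to 78 counts per library. The log2 fold change was -0.04 (SE 0.20, 95% interval -0.45 to 0.38, adjusted p = 0.899).

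The CtBP-binding repressor Klf3 lies at chr5:64803388-64832901 on the + strand. Control libraries had 57.7, 70.2, 66.5, 74.3 and 56.7 CPM and Trpm7 cKO libraries had 68.4, 40.5, 69.4, 56.3 and 77.3 CPM. The widest spread was among the Trpm7 cKO libraries, which held both the lowest and the highest value, on 14 to 37 counts each. The log2 fold change was -0.12 (SE 0.19, 95% interval -0.51 to 0.27, adjusted p = 0.630).

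Among the Sin3-binding members, Klf9 is a target of glucocorticoid and thyroid hormone receptors. It lies at chr19:23141226-23168134 on the + strand. Control libraries had 111, 165, 104, 113 and 138 CPM, and Trpm7 cKO libraries had 349, 396, 471, 262 and 657 CPM. The lowest Trpm7 cKO library, replicate 4, still stood well above the highest control library. Klf9 rose by a log2 fold change of 1.72 (SE 0.21, 95% interval 1.29 to 2.15, adjusted p = 1.74e-06), higher than 93.5% of all genes tested. With the leukocyte score as a covariate it was 1.35 (adjusted p = 0.152), and without scaling it was 0.43 (adjusted p = 0.292), neither of them called. The raw counts, 97 to 160 per control and 119 to 215 per Trpm7 cKO library, overlapped although the latter libraries were shallower.

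Klf10, first described as a gene induced early by TGF-beta, had the largest log2 fold change of the members. It lies at chr15:38291463-38300706 on the - strand. Control libraries had 111, 94.0, 104, 103 and 77.6 CPM from 112, 91, 97, 103 and 67 counts. Trpm7 cKO libraries had 874, 558, 299.6, 229 and 237 CPM from 473, 303, 82, 138 and 43 counts. All 5 Trpm7 cKO libraries were above all control libraries, but they differed among themselves more than those of any other tested member, with a highest-to-lowest ratio of 3.82 against 1.44 in control, and replicates 1 and 2 stood apart from the other 3. The log2 fold change was 2.19 (SE 0.36, 95% interval 1.39 to 2.99, adjusted p = 0.000420) and 1.76 without Trpm7 cKO replicate 1 (adjusted p = 9.89e-06). It was the only member still called higher without scaling, at a log2 difference of 1.14 (adjusted p = 0.00526). With the leukocyte score as a covariate, where the scores did not overlap between genotypes, the log2 fold change was 4.01 (adjusted p = 0.0128).

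Klf13, which regulates Ccl5 in T cells, lies at chr7:63886351-63938915 on the - strand. It had 51.7, 55.8, 33.2, 55.2 and 74.1 CPM in control and 79.5, 86.5, 69.4, 96.1 and 138 CPM in Trpm7 cKO libraries. Trpm7 cKO replicate 3 fell below control replicate 5, and otherwise the groups were apart (exact permutation test, two-sided, p = 0.0159). The log2 fold change was 0.75 (SE 0.21, 95% interval 0.32 to 1.19, adjusted p = 0.00567), on 19 to 64 counts per library. The call was lost when libraries were scaled on MuSC identity genes (0.48, adjusted p = 0.120) and with the leukocyte score as a covariate (0.14, adjusted p = 0.931).

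Klf15, a glucocorticoid-induced regulator of amino acid and glucose metabolism in muscle, lies at chr6:90462576-90475238 on the + strand. It had 0 counts in each of the 5 control libraries, which allows up to 2.98 to 3.47 CPM there on the normalized scale (3 counts in each library). Trpm7 cKO replicates 1, 2 and 3 had 5, 4 and 3 counts and replicates 4 and 5 had 0. These 12 molecules did not pass the filter on low counts, and no fold is given. Without that filter, edgeR gave an adjusted p of 0.000106, and DESeq2 gave 0.00859, both on the same 12 molecules from 3 libraries.

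**Figure D2:**
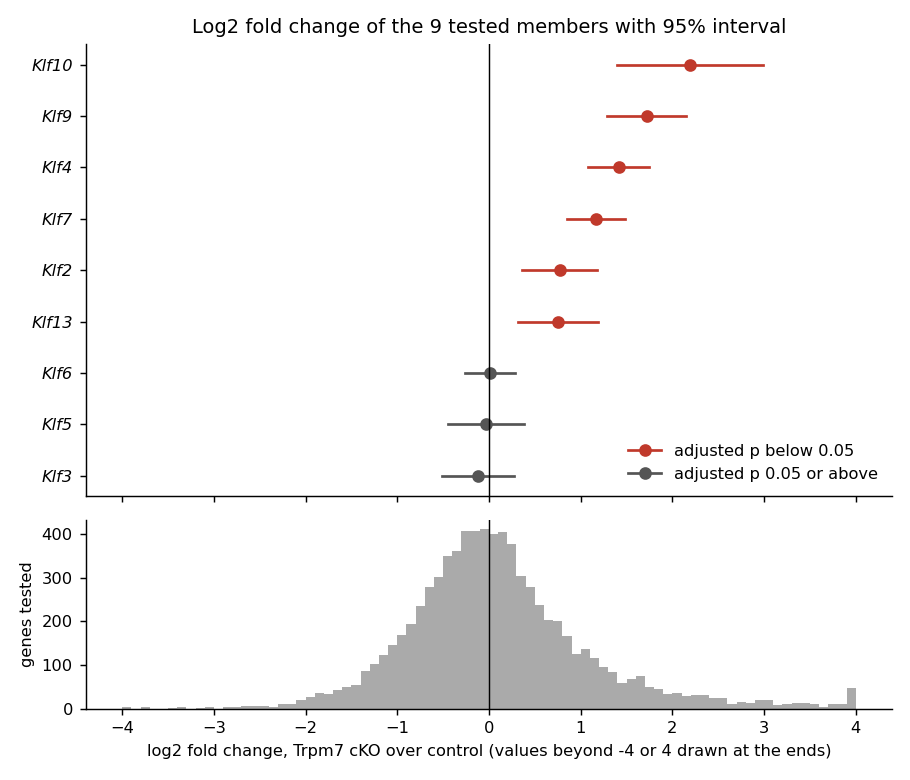
Log2 fold change of Trpm7 cKO over control for the 9 tested KLF genes (points; bars, 95% interval from edgeR's quasi-likelihood test, n = 5 per genotype), beside the distribution over all 7753 genes tested. Klf10 at 2.19 and Klf9 at 1.72 lie past the threshold of 1.5, and Klf3, Klf5 and Klf6 lie between -0.12 and 0.01, while without scaling for library size Klf2 and Klf13 fell below 0 as did Klf6.

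The sequence before the transcription start was examined since the members moved unequally. RefSeq promoters of GRCm38.p6 (250 bases before to 50 bases after the start) matched 8 of the 10 members. Klf5 and Klf10 had no entry. The windows from 250 to 31 bases before the start are printed for Klf6, which did not pass the test, and for Klf4 and Klf9, which rose, in lower case with CACCC and CACGTG matches in capitals. They are written 5′ to 3′ on the strand of the gene, from chr13:5861239-5861458 (+), chr4:55532506-55532725 (-) and chr19:23140976-23141195 (+).
Klf6: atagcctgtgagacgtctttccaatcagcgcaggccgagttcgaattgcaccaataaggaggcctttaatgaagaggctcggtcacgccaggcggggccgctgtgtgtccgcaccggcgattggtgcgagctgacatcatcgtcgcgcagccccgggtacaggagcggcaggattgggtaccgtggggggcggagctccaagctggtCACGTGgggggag
Klf4: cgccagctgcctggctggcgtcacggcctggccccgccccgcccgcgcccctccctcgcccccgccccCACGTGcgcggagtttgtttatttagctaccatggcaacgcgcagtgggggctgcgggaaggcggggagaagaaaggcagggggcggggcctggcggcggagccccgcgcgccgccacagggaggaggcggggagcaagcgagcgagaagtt
Klf9: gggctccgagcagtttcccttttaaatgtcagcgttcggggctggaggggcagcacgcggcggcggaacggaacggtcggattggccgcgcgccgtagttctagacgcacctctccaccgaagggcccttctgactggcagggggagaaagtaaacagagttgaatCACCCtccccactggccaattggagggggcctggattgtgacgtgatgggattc
The E-box-like letters CACGTG stood at -43 in Klf6 and at -182 in Klf4, and CACCC at -84 in Klf9, none overlapping another searched motif. On either strand of the full 300 bases, CACGTG was found in 3 of the 8 member promoters (Klf4, Klf6 and Klf15) and in 7.15% of all 32851 RefSeq promoters. CACCC, the letters that KLFs themselves bind, was found in 6 of the 8 members and in 57.5% of all promoters, and GGGCGG in 7 of the 8 and in 35.7%. TGACGTCA, TATAAA and the CArG box were found in 0 of the 8, and in 1.79%, 13.6% and 1.63% of all promoters. CACGTG was found in Klf6, which did not pass the test, as well as in Klf4, which did. A match is a description of letters and not a site of binding.

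The balance within the family was compared by shares of the summed member counts, which need no scaling between libraries. Klf6 held 56.9% ± 1.56 of all member counts in control (range 55.7% to 58.7%) and 35.4% ± 6.05 in Trpm7 cKO libraries (30.1% to 45.7%, SD, n = 5 each). Klf4 held 12.3% ± 1.08 in control and 20.2% ± 2.85 in Trpm7 cKO, with ranges of 11.1% to 13.6% and 16.1% to 23.8%. In each case the ranges of the genotypes did not overlap. The share of Klf9 went from 4.60% to 6.10% in control to 7.85% to 14.5% in Trpm7 cKO, and that of Klf10 from 3.10% to 4.74% to 5.25% to 21.3%. Klf3 (2.26% to 3.19% against 1.02% to 1.75%) and Klf5 (2.24% to 2.97% against 1.12% to 2.09%) had lower shares in Trpm7 cKO, while the ranges of Klf2, Klf7, Klf13 and Klf15 overlapped. Shares are bound to sum to the whole, so a lower share is not a lower level. The log2 ratio of Klf4 to Klf6 counts was -2.39 to -2.03 in control and -1.50 to -0.44 in Trpm7 cKO libraries. That of Klf6 to Klf10 was 3.62 to 4.16 and 0.50 to 2.74. Of 36 pairs of tested members, the ranges of such ratios were apart for 18, both of these pairs among them. They overlapped for the rest, for example for Klf4 to Klf9. The pairs reuse the same members, and the share among pairs of all genes was not computed. The count of 18 is therefore a description and not a result about the family.

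**Figure D3:**
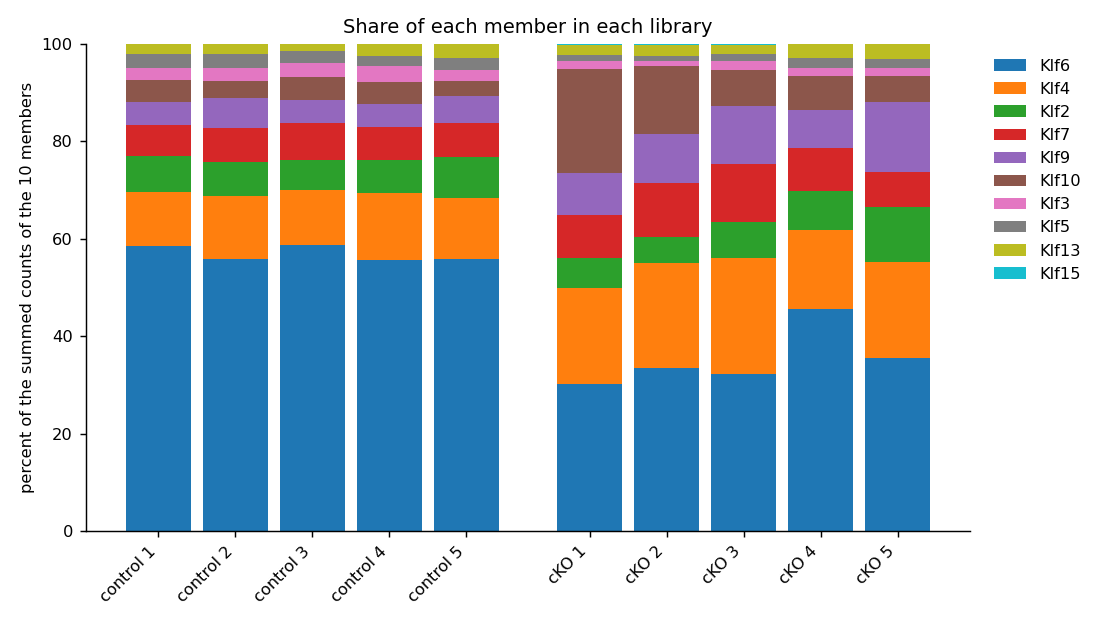
Share of each KLF gene in the summed counts of the 10 genes (percent, vertical axis) in each of the 5 control and 5 Trpm7 cKO libraries. The Klf6 segment spans 55.7% to 58.7% in control and 30.1% to 45.7% in Trpm7 cKO libraries, with larger Klf4, Klf9 and Klf10 segments in the latter.

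The order of levels changed with it. Since a molecule gives 1 count at its 3′ end whatever its length, CPM were compared between genes without division by length. In control, the order by mean CPM was Klf6, Klf4, Klf2, Klf7, Klf9, Klf10, Klf3, Klf5, Klf13 and Klf15. Klf6 and Klf4 were each apart from the next in order, as were Klf10 from Klf3 and Klf13 from Klf15, while the ranges of all other neighbours overlapped. In Trpm7 cKO, Klf10 and Klf9 followed Klf6 and Klf4, ahead of Klf7, Klf2, Klf13, Klf5, Klf3 and Klf15. There, the ranges were apart between Klf6 and Klf4, between Klf2 and Klf13 and between Klf3 and Klf15, and the members from Klf4 to Klf2 overlapped with their neighbours. The members summed to 2431 ± 193 CPM in control and 3974 ± 425 CPM in Trpm7 cKO libraries (SD, n = 5 each), ranges of 2194 to 2709 and 3335 to 4520.

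With the mean of each genotype subtracted from log2 CPM, the genes most like Klf6 across the 10 libraries were Blmh (r = 0.976), Mrpl12 (r = 0.951) and Atp2b1 (r = 0.945), the highest of 3754 candidates. Blmh encodes bleomycin hydrolase, Mrpl12 a mitochondrial ribosomal protein and Atp2b1 a calcium pump of the plasma membrane. These points share depth and library preparation, and the values are descriptions chosen as the highest.

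**Figure D4:**
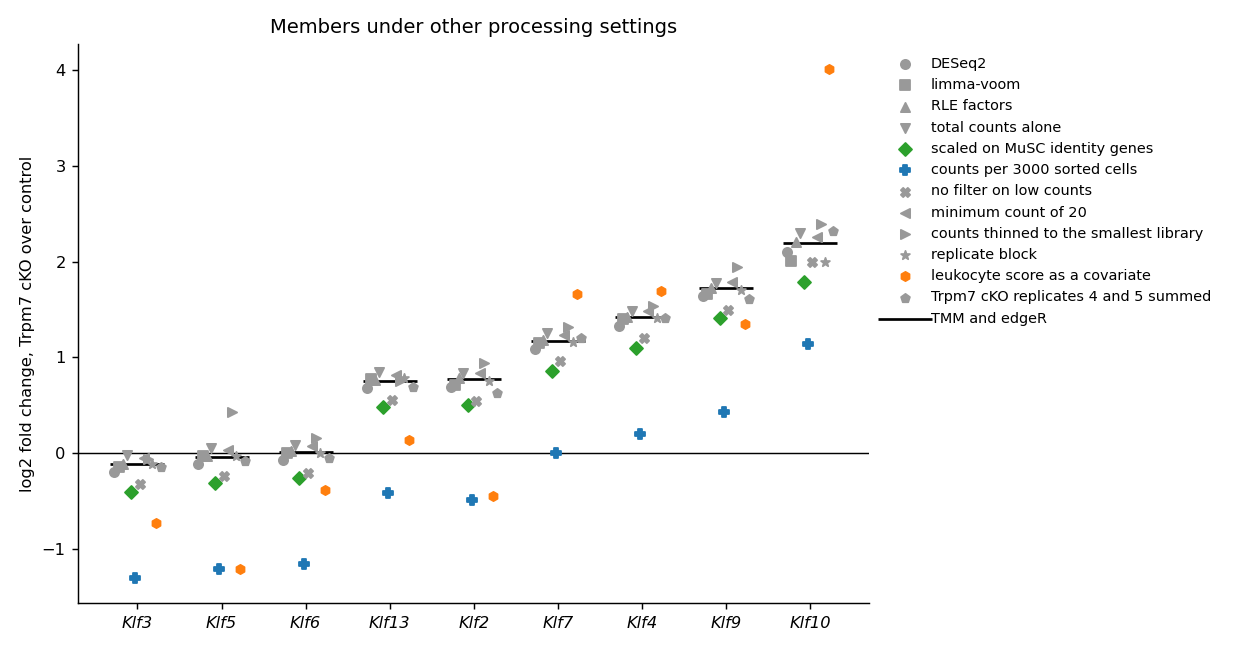
Log2 fold change of the 9 tested KLF genes (vertical axis) under each processing setting. Klf4, Klf9 and Klf10 lie above 0 in every setting drawn. Per 3000 sorted cells, Klf4 at 0.20 and Klf9 at 0.43 were not called, and Klf7 reaches 0.00. Klf2, Klf13 and Klf6 lie below 0 there, at -0.49, -0.41 and -1.16. With the leukocyte score as a covariate, Klf2 lies at -0.45, and Klf9 and Klf13, at 1.35 and 0.14, were not called.

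The remaining family members were scarce. Of the other KLF genes, only Klf11 had enough counts to be tested, with a log2 fold change of 0.40 (adjusted p = 0.224). Klf8 had 22 counts in all control and 5 in all Trpm7 cKO libraries, Klf12 had 17 and 1, Klf14 had 0 and 1, Klf16 had 30 and 15, and Klf1 had none in either. Of the SP factors, which bind the same GC boxes, 3 were tested. Sp3 rose by 0.83 (adjusted p = 0.000263), from 106 to 159 CPM in control to 171 to 283 CPM in Trpm7 cKO libraries. Sp2 fell by 0.68 on the log2 scale (adjusted p = 0.0425), with overlapping ranges. This call did not hold with total counts alone, DESeq2 or limma-voom, and with the leukocyte score as a covariate the log2 fold change of Sp2 was 0.83 (adjusted p = 0.548). Sp3 was also not called with that covariate (1.17, adjusted p = 0.121), and without scaling it was at -0.33 (adjusted p = 0.427). Sp1 had a log2 fold change of -0.13 (adjusted p = 0.607).

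Coregulators and modifiers of KLF proteins were examined next. Of 14 tested, 5 were higher and 2 lower, against 24.6% and 24.1% of all genes, with a median log2 fold change of 0.32, which was 0.02 when scaled on MuSC identity genes and -0.85 without scaling. The counts were 3 higher and 3 lower with the former scaling, 0 and 7 without scaling, and 0 and 0 with the leukocyte score as a covariate. Of all 7753 genes, these settings called 1188 higher and 2514 lower, 380 and 5162, and 345 and 117. Hdac2, a deacetylase of the Sin3 complex, fell by 1.40 on the log2 scale (adjusted p = 1.26e-06), from 404 to 534 CPM to 117 to 225 CPM, and the corepressor Ctbp1 fell by 0.61 (adjusted p = 0.000767). Neither range overlapped between genotypes. The acetyltransferases Crebbp (0.90, adjusted p = 0.000830) and Kat2b (1.07, adjusted p = 0.000849) rose with overlapping ranges. Fbxw7 and Wwp1, ubiquitin ligases for which KLF proteins are known substrates, rose by 1.40 (adjusted p = 0.000131) and 0.82 (adjusted p = 0.0109). The call for Wwp1 was lost when scaled on MuSC identity genes (0.56, adjusted p = 0.114), and its value was -0.39 without scaling and -0.25 with the leukocyte score.

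Signals known to act upstream of KLFs formed further lists. Of 8 tested genes of the ERK5 and MEF2 path to Klf2 and Klf4, 2 were lower and 1 higher, against 48.7% of all genes called in either direction, with a median log2 fold change of -0.04, which was -0.35 when scaled on MuSC identity genes and -1.19 without scaling. Without scaling 0 were higher and 6 lower, against 380 and 5162 of all 7753 genes. With the leukocyte score as a covariate there were 0 and 1, against 345 and 117. Mef2d fell by 1.96 on the log2 scale (adjusted p = 4.46e-07; 81.0 to 101 CPM in control, 11.0 to 36.5 CPM in Trpm7 cKO) and Mef2a by 1.31 (adjusted p = 2.14e-06; 253 to 317 CPM and 79.1 to 139 CPM), while Mef2c rose by 1.39 (adjusted p = 0.00597) with overlapping ranges. After TMM normalization, Mef2a and Mef2d had the opposite sign to Klf2 and Klf4, and Mef2c had the same sign. Klf2 was itself negative without scaling (-0.49) and with the leukocyte score (-0.45). Whether these transcript levels bear on Klf2 and Klf4 was not tested. The kinases of the path, Map2k5 and Mapk7, had too few counts to be tested.

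Of 8 tested genes of the TGF-beta path to Klf10, 4 were higher and 1 lower, against 24.6% and 24.1% of all genes, with a median of 0.64, which was 0.33 when scaled on MuSC identity genes and -0.50 without scaling. Without scaling 0 were higher and 3 lower, against 380 and 5162 of all 7753 genes. With the leukocyte score there were 2 and 0, against 345 and 117. Skil, a SMAD corepressor that TGF-beta induces, rose by 1.80 (adjusted p = 7.02e-08), from 41.8 to 57.9 CPM to 124 to 198 CPM, and the inhibitory Smad7 by 1.64 (adjusted p = 0.000161). The signal-carrying Smad3 rose by 1.05 (adjusted p = 0.00101) and Smad2 by 0.74 (adjusted p = 0.0218; 0.43 with adjusted p = 0.202 when scaled on MuSC identity genes and -0.38 without scaling), and the corepressor Tgif1 fell by 0.35 (adjusted p = 0.0415). The ligand gene Tgfb1 was not tested, with 19 counts in control and 45 in Trpm7 cKO libraries.

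Of 10 tested genes of the glucocorticoid response, to which Klf9 and Klf15 belong, 9 were higher and 1 lower, against 24.6% and 24.1% of all genes. There were 2 higher and 1 lower without scaling, against 380 and 5162 of all 7753 genes. With the leukocyte score as a covariate there were 4 and 0, against 345 and 117. Their median log2 fold change was 1.60, against 1.27 when scaled on MuSC identity genes and 0.32 without scaling. The receptor gene Nr3c1 rose by 1.74 (adjusted p = 3.08e-07), from 40.8 to 63.7 CPM to 121 to 211 CPM. Per1 (2.72, adjusted p = 2.16e-08), Cebpd (3.66, adjusted p = 8.33e-08), Mt2 (2.09, adjusted p = 4.76e-06), Errfi1 (1.05, adjusted p = 6.71e-05) and Tsc22d3 (0.97, adjusted p = 0.000318) rose with non-overlapping ranges. Per1 and Cebpd stayed called higher without scaling and with the leukocyte score. Without scaling, Errfi1 was at -0.14 (adjusted p = 0.734) and Tsc22d3 at -0.23 (adjusted p = 0.579). With the leukocyte score, Tsc22d3 was at -0.13 (adjusted p = 0.927), while Errfi1 was called higher. Sgk1, named after its value was seen, fell by 0.45 (adjusted p = 0.00661), and Zbtb16, with 0 counts in control and 10 in Trpm7 cKO libraries, was not tested. All of these genes also respond to other signals.

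Several KLFs belong to the genes induced at once by growth factors or stress. Of 18 immediate early genes, all tested, 17 were higher and none lower, against 24.6% and 24.1% of all genes, with a median of 1.66, which was 1.37 when scaled on MuSC identity genes and 0.49 without scaling. Without scaling 5 were higher and 1 lower, against 380 and 5162 of all 7753 genes. With the leukocyte score there were 10 and 0, against 345 and 117. Atf3 (2.18, adjusted p = 2.04e-08), Ier3 (2.55, adjusted p = 2.93e-08), Egr1 (2.31, adjusted p = 4.31e-08) and Btg2 (2.27, adjusted p = 6.33e-08) had larger log2 fold changes than Klf4. Nr4a1 (1.74, adjusted p = 9.05e-08) and Dusp1 (1.65, adjusted p = 1.20e-07) were close to Klf9. Myc, the exception and named after its value was seen, had a log2 fold change of 0.25 (adjusted p = 0.209). Klf6, at 0.01 in the same libraries, is a member that is often counted with this class.

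Of 18 genes described elsewhere as KLF targets, 12 were tested, 6 were higher and 2 lower, against 24.6% and 24.1% of all genes. There were 3 higher and 3 lower without scaling, against 380 and 5162 of all 7753 genes. With the leukocyte score there were 1 and 0, against 345 and 117. Their median log2 fold change was 0.68, against 0.36 when scaled on MuSC identity genes and -0.49 without scaling. Tagln, a smooth muscle actin-binding protein that Klf4 represses in vascular muscle, rose by 5.03 (adjusted p = 1.47e-12), from 8.26 to 15.0 CPM to 279 to 419 CPM. Eng, a coreceptor of TGF-beta (3.77, adjusted p = 9.85e-07), and Plau, the urokinase gene (1.64, adjusted p = 2.92e-05), rose as well. Ccnb1, the mitotic cyclin gene, fell by 1.64 on the log2 scale (adjusted p = 5.70e-06), and Cdkn1a, a cell cycle inhibitor known as a target of Klf4 and Klf6, fell by 0.65 (adjusted p = 0.000786), from 1952 to 2332 CPM to 1034 to 1577 CPM. With the leukocyte score as a covariate, Plau was at -0.36 (adjusted p = 0.752) and Cdkn1a at -0.03 (adjusted p = 0.984). Of the genes named here, only Tagln stayed called in that fit. Eng and Tagln are also expressed in endothelial and mural cells, whose markers moved with genotype.

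**Figure D5:**
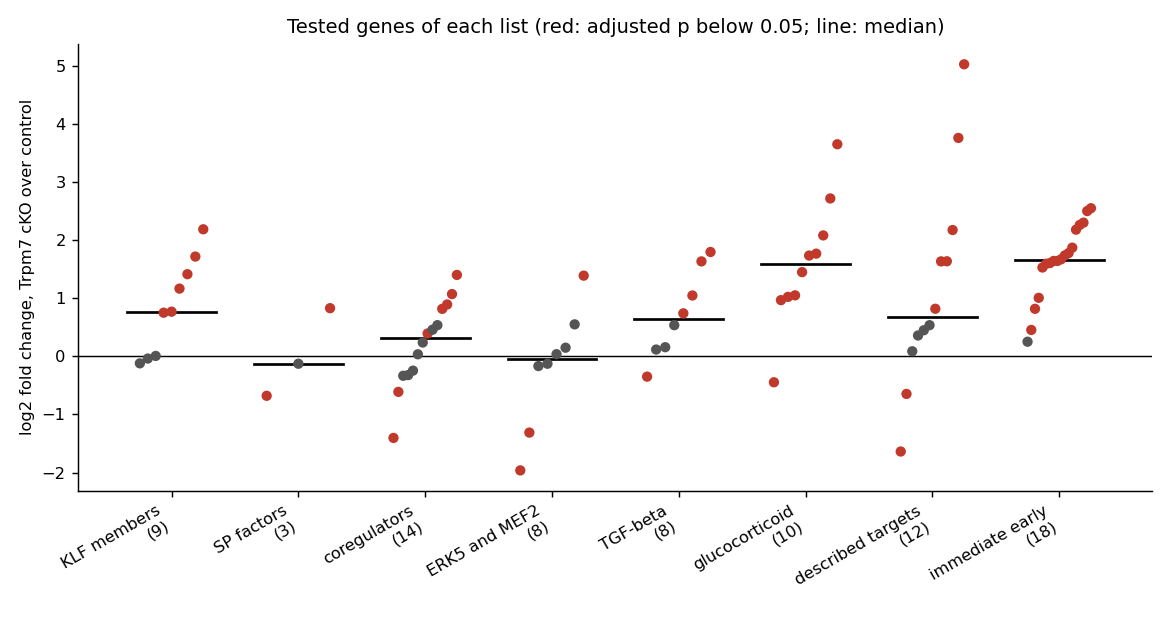
Log2 fold change of Trpm7 cKO over control (vertical axis) for the tested genes of each list, with genes at an adjusted p below 0.05 in red, the others in grey and a line at the median. The KLF members have a median of 0.77, the glucocorticoid genes 1.60 and the immediate early genes 1.66, and of the 8 lists drawn only the glucocorticoid and immediate early lists, at 0.32 and 0.49, kept a median above 0 without scaling.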

How the data were processed

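RNA-seq was performed by the authors on MuSCs of 5 control and 5 Trpm7 cKO libraries with CEL-Seq2, which reads 3′ ends and carries unique molecular identifiers (UMIs). Per the labels and the study's methods, UMI-tools 1.1.4, Trim Galore 0.6.10, HISAT2 2.2.1 and featureCounts 2.0.6 were used on GRCm38, and the deposited values are UMI counts per gene without normalization by the authors. The annotation release and strand setting are not given in the sources used here.

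Here, edgeR 4.0.16 (R 4.3.3) was applied to the counts: filterByExpr (minimum count 10, minimum total 15), TMM factors, a robust quasi-likelihood fit with genotype as the only term, and Benjamini-Hochberg adjustment over 7753 genes. The SE is the absolute log2 fold change over the square root of F. A symbol listed on several lines was taken from the line with the larger total. Replicate pairs differed by more than counting noise (chi-square per degree of freedom of at least 1.4). Counting limits at 0 use 3 counts and cover counting error only. The members and lists were chosen with earlier results of these data known. All members were named, up to 6 genes called per list by lowest adjusted p, genes of the lists with too few counts, the first 5 genes of marker lists, and the 3 genes most correlated with the most abundant member. Gene positions came from the GENCODE annotation of GRCm38. The script was tested on simulated counts. Alternatives were DESeq2 1.42.0, limma-voom (limma 3.58.1), other scalings and filters, thinning, a replicate block, a leukocyte covariate and omitted libraries.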

Additional observations from a re-analysis of the deposited data

Results flagged for a closer look

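The level of Klf2 in Trpm7 cKO replicate 5, 513 CPM, stood far from those of the other Trpm7 cKO libraries, which lay between 213 and 289 CPM. Its distance to the nearest library was 0.749 of the range of the group. This was the only such value among 19 groups of 5 libraries examined. Chance gives about 1 in 20 groups, so 1 among 19 is close to what chance alone gives. The library was the shallowest, with 205986 counts in all and 93 counts of Klf2, and the call for Klf2 held without it, at a log2 fold change of 0.55 (adjusted p = 0.00594, edgeR's quasi-likelihood test). In this library the mean log2 CPM of the 3 tested endothelial markers, 7.19, was the highest of all libraries. So were the means of the fibro-adipogenic (8.96) and mural (8.70) markers and of the glucocorticoid (8.57), immediate early (9.73), described target (6.93) and coregulator (6.33) lists. Those of the leukocyte (7.35) and erythroid (9.08) markers were exceeded in other libraries. The part of any of these lists in the Klf2 value was not tested.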

How the results depend on the processing

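With counts per 3000 sorted cells, 1 member was higher (Klf10), 3 were lower (Klf3, Klf5 and Klf6) and 0 exceeded both thresholds, and the log2 fold changes of Klf2, Klf6 and Klf13 turned to -0.49, -1.16 and -0.41. By construction, this setting shifts the median of all genes by -1.15. Scaling on MuSC identity genes shifted it by -0.30, with 4 members higher and 1 past both thresholds, the filter on low counts being absent shifted it by -0.20, and total counts alone by 0.10. With the leukocyte score as a covariate, 3 members were higher (Klf4, Klf7 and Klf10) and Klf2 turned to -0.45. The scores of the genotypes did not overlap (3.70 to 4.30 and 5.53 to 7.48, mean log2 CPM), so this fit separates them only by the spread within genotypes. Over all genes, 345 were then higher and 117 lower, and without scaling 380 and 5162, against 1908 and 1866. Thinned to the smallest library, 909 and 884 of 3931 genes were called, and the control share of Klf5 moved from 2.53% to 2.04%. Genes past both thresholds numbered 932, but 2029 by DESeq2, 2436 without the filter, 2664 without scaling, 456 with the covariate and 442 after thinning. Of the other KLF and SP genes, DESeq2 called 1 in place of 2. All member calls were kept without each library in turn, with ranges of 0.55 to 0.86 for Klf2, 1.34 to 1.51 for Klf4, 1.08 to 1.24 for Klf7, 1.53 to 1.84 for Klf9, 1.76 to 2.37 for Klf10 and 0.61 to 0.91 for Klf13. They were also kept with Trpm7 cKO replicates 4 and 5 summed, and with limma-voom.

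Replicate numbers are shared between genotypes, and residuals of same-numbered libraries correlated at -0.12 to 0.18. Control replicate 5 was most correlated with Trpm7 cKO replicate 5 among the libraries of the other genotype. No other library was closest to the one of its own number. The labels do not say whether the numbers pair the samples, and these correlations cannot decide it. With the replicate block, 6 members were higher and 2 exceeded both thresholds, and 1814 genes were higher and 1758 lower in all.

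Depth limits Klf3, Klf5, Klf13 and Klf15 most, with 14 to 37, 15 to 42, 19 to 58 and 0 to 5 counts per Trpm7 cKO library.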
